A study of Homo sapiens with 4 samples.

Results

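Long noncoding RNAs that host small nucleolar RNAs, or that stay in the nucleus, were followed on 4 expression arrays of PC3 cells. The set was a list of 10 genes: GAS5, SNHG1, SNHG3, SNHG5, SNHG7, SNHG8, SNHG12, MALAT1, NEAT1 and H19. Accessions named 24910 probes of 19102 genes in all. Every probe whose annotated transcript accession belongs to one of these genes was taken, which gave 10 of the 34127 probes on the array and covered 9 of the 10 genes. No probe was named NEAT1 through its accession, so this gene is not analysed here. Of the 10 probes, 9 were well above background on all 4 arrays and were tested, and they stand for 8 genes. The tenth probe, for H19, was well above background on none.

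PC3 is an established human prostate cancer cell line. Its cells were infected for 48 h with lentivirus carrying an shRNA against ALKBH3, a demethylase that removes alkylation damage from single-stranded DNA and from RNA, or an shRNA against GFP as control, and puromycin selection then followed in all cells, lasting 48 h or 96 h. Each of the 4 combinations was measured on 1 single-colour Agilent array, the labels give no name for the ALKBH3 shRNA, and the untreated parental line is not part of the comparison. The 2 time points are therefore the only repeat of each shRNA, and nothing in the labels says that they came from separate cultures, so p-values measure only the spread between these arrays. The arrays of each time point shared 1 slide, so time and slide cannot be told apart, whereas the shRNAs are compared within a slide.

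Small nucleolar RNAs (snoRNAs) guide the chemical modification of ribosomal RNA, and in human cells most of them are cut out of the introns of longer host transcripts. The hosts named SNHG and GAS5 carry little protein-coding information. Their spliced RNA is degraded by nonsense-mediated decay while it is being translated, and several of them start with a run of pyrimidines (a 5' terminal oligopyrimidine, or TOP, sequence) like the mRNAs of ribosomal proteins, which ties their level to the state of translation and growth. MALAT1 stays in the nucleus at the nuclear speckles, which store splicing factors. NEAT1 is the scaffold of another nuclear body, the paraspeckle. H19 is a maternally expressed imprinted RNA next to IGF2 and contains a microRNA.

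The snoRNA genes that RefSeq places inside the hosts numbered 11 for GAS5, 9 for SNHG1, 4 for SNHG12, 2 each for SNHG3, SNHG5 and SNHG7, and 1 for SNHG8. RefSeq places 0 snoRNA genes inside MALAT1 or H19. The bases at the annotated start are shown for the 7 hosts because the TOP run is the feature that the class is known for, and for MALAT1 as a nuclear RNA outside that class. Each line gives 10 bases before the start and 20 bases from it, on the transcribed strand of GRCh38.p14 from RefSeq, and capitals mark the unbroken run of C or T that begins at the start base.
SNHG12 (chr1:28581854-28581883, minus strand): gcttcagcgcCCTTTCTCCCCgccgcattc
SNHG5 (chr6:85678714-85678743, minus strand): gcacttcggtCTTTTacgtcggccttcgcg
SNHG7 (chr9:136728165-136728194, minus strand): ccttctcgtcCTCTgcgtgcgccggaggct
SNHG1 (chr11:62855866-62855895, minus strand): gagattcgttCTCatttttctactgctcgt
SNHG8 (chr4:118278752-118278781, plus strand): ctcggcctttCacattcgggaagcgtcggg
GAS5 (chr1:173869026-173869055, minus strand): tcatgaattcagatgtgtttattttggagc
SNHG3 (chr1:28505933-28505962, plus strand): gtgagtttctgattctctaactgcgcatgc
MALAT1 (chr11:65497728-65497757, plus strand): ctctcccctcCgcagcctgcagcccgagac

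Of the 7 hosts, 5 (71.4%) have C as the annotated start base, against 15.0% of the 27305 genes with a start window. A C followed directly by at least 4 more pyrimidines, read on the transcribed strand from the start base only, was found for SNHG12 and SNHG5, which is 28.6% of the hosts against 4.04% of all genes. The run was 11 bases long in SNHG12 and 5 in SNHG5. For GAS5 and SNHG3 the base at the start shown was a purine. Only the first start listed for each gene was read, so a pyrimidine run at another start of GAS5 or any other gene would be missed. These matches describe the annotated starts, and the position at which transcription begins in PC3 cells was not measured here.

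All values below are log2 signals of a probe relative to the 75th percentile of its own array, so a value of 0 is the intensity at that percentile, which ranged from 2150 to 2394 over the 4 arrays. Each noncoding RNA probe has 1 spot on an array. The SD between spots of the same probe, over probes with at least 5 spots, was 0.085 to 0.097 on the log2 scale. The epithelial markers KRT8, KRT18, EPCAM and CDH1 were well above background on all arrays, while KLK3, a marker of the luminal prostate, was not above background on any. The flag is lenient at low signal: the lymphoid markers CD3E and PTPRC also had probes that passed it, with a highest intensity of 101. So did probes of KLK2 and TMPRSS2 of the luminal list, of the fibroblast genes COL1A1 and DCN, and of PECAM1 from endothelium. ALKBH3 itself was checked with both of its probes. Probe A_23_P35989 read -0.63 and -2.67 at 48 h (control, then ALKBH3 shRNA) and -0.61 and -2.68 at 96 h, a fall of 4.13-fold (log2 fold change -2.05, SE 0.11, 2 arrays against 2, limma Benjamini-Hochberg adjusted p = 0.228, and 0.0176 with time point as a block). Probe A_33_P3225250 fell by 3.09-fold.

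None of the noncoding RNA probes passed the cutoffs of the study, a change of at least 2-fold with an unadjusted p below 0.05, when ALKBH3 shRNA was compared with control shRNA. The count was 0 of 9, against 1.12% of the 23244 probes tested (0.886% higher and 0.232% lower). At a Benjamini-Hochberg adjusted p below 0.05 limma called 0 of the 9 and 0% of all probes, and with the time point as a block 0 of the 9 and 2.95% of all probes. An unadjusted p below 0.05 was reached by 1 of the 9, the probe for MALAT1, and by 7.66% of all probes (4.32% higher and 3.33% lower). The methods' t-test on the same values called 0 of the 9 at either cutoff and gave an unadjusted p below 0.05 to 1 of them, the probe for SNHG5. With 2 arrays against 2, an exact two-sided permutation test cannot go below p = 0.333.

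The 9 probes leaned to neither side. Their log2 fold changes ran from -0.40 to 0.16 with a median of 0.05, next to a median of 0.0028 and a range from -0.37 to 0.51 for the middle 90% of all probes. At both time points 4 probes were higher with ALKBH3 shRNA and 3 were lower, whereas 34.5% and 34.2% of all probes were. The values of both ALKBH3 shRNA arrays lay below those of both control arrays for 2 of the 9 probes, MALAT1 and SNHG5, and above them for 0. Such separation was found for 18.6% of all probes in the lower and 17.4% in the higher direction.

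**Figure D1:**
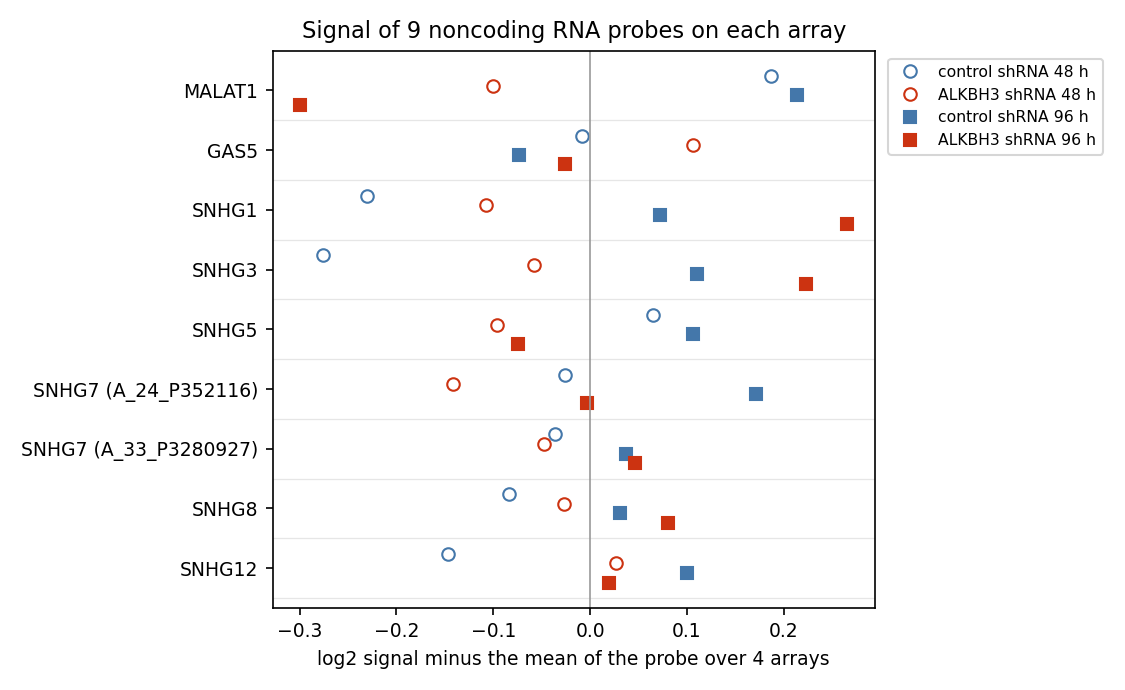
Log2 signal of the 9 tested noncoding RNA probes on each array, minus the mean of the probe over the 4 arrays (horizontal axis, log2 units), with 1 point for each array. Blue is control shRNA, red is ALKBH3 shRNA, open circles are 48 h and filled squares 96 h. In the MALAT1 row both red points lie left of both blue points, and in the SNHG1 and SNHG3 rows both squares lie right of both circles.

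MALAT1, the nuclear speckle RNA, gave the largest shRNA difference of the 9 probes. Its probe read -2.92 with control and -3.21 with ALKBH3 shRNA at 48 h, then -2.90 and -3.41 at 96 h. The control arrays lay within 0.03 of each other, and both ALKBH3 shRNA arrays were lower. The difference was -0.29 at 48 h and -0.51 at 96 h, and the fitted log2 fold change was -0.40 (SE 0.13, 95% interval -0.75 to -0.05, 2 arrays against 2), or 1.32-fold lower. The unadjusted limma p was 0.0323 and the adjusted p 0.599, so the difference did not hold up across all probes. The spot is dim, with intensities of 225 to 314 on the 4 arrays. The difference shrank to -0.21 with normexp background correction and to -0.25 in the values that the authors had normalized, and in both the unadjusted p was above 0.05 (0.193 and 0.169).

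The whole MALAT1 result rests on 1 probe with 1 spot on an array. Which part or form of the transcript this probe reads is not known here, so its signal may not stand for the whole MALAT1 RNA. In a bulk RNA sample fewer cells that express a gene and less of its RNA per cell cannot be told apart. RefSeq places an antisense RNA, TALAM1, over the gene and a small cytoplasmic RNA, MASCRNA, inside it, and neither has a named probe on this array. The 3 named genes with the most similar profile, by the distance of mean-centred log2 signals over the 4 arrays among 14555 genes, were SPAG9 (0.0201), SETD4 (0.0223) and ARHGEF26 (0.0355). SPAG9, for example, differed between the shRNAs by -0.31 at 48 h and -0.49 at 96 h. Because these genes were picked by the same 4 values, their match to MALAT1 adds no separate evidence.

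SNHG5, which hosts the box C/D snoRNAs SNORD50A and SNORD50B, was the other probe whose groups did not overlap. It read 2.10 with control and 1.94 with ALKBH3 shRNA at 48 h, then 2.14 and 1.96 at 96 h. The 48 h and 96 h differences were close to each other, -0.16 and -0.18. The log2 fold change of -0.17 (SE 0.12, 95% interval -0.48 to 0.13) did not pass the limma test (adjusted p = 0.829).

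GAS5, the host with the most snoRNA genes in this set, accumulates in cells whose growth is arrested, which gave it its name. Its probe read 3.61 with control and 3.73 with ALKBH3 shRNA at 48 h, then 3.55 and 3.59 at 96 h. The values of the groups overlapped, and the log2 fold change was 0.08 (SE 0.12, 95% interval -0.25 to 0.41, limma adjusted p = 0.959). The interval reaches a rise of 1.33-fold and not the 2-fold cutoff, but it measures only the spread between these arrays.

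SNHG1, whose introns hold SNORD22 and the cluster from SNORD25 to SNORD31, read 2.23 with control and 2.35 with ALKBH3 shRNA at 48 h, then 2.53 and 2.73 at 96 h. SNHG3, which hosts the H/ACA snoRNAs SNORA73A and SNORA73B, read 2.48 and 2.70 at 48 h, and 2.87 and 2.98 at 96 h. Both probes were higher with ALKBH3 shRNA at both time points, but each shRNA spread over the time points by more than the shRNAs differed. The log2 fold change was 0.16 for SNHG1 (SE 0.20, limma adjusted p = 0.938) and 0.16 for SNHG3 (SE 0.19, limma adjusted p = 0.935).

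SNHG7, the host of SNORA17A and SNORA17B, is read by 2 probes whose accessions are different transcripts of the gene. Probe A_24_P352116 read -2.51 with control and -2.63 with ALKBH3 shRNA at 48 h, then -2.31 and -2.49 at 96 h, a log2 fold change of -0.15 (SE 0.14). Probe A_33_P3280927 read -1.64 and -1.65 at 48 h, and -1.56 and -1.55 at 96 h, a log2 fold change of -0.0012 (SE 0.12). The probes thus gave different point estimates, each with a 95% interval that holds the estimate of the other (-0.51 to 0.22 and -0.32 to 0.32).

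SNHG8, the host of SNORA24, read 2.90 with control and 2.95 with ALKBH3 shRNA at 48 h, then 3.01 and 3.06 at 96 h, and its log2 fold change was 0.05 (SE 0.13). SNHG12, the host with the long pyrimidine run shown above, read 1.27 and 1.44 at 48 h, and 1.52 and 1.44 at 96 h. Its shRNA difference was 0.17 at 48 h and -0.08 at 96 h, and the fitted log2 fold change was 0.05 (SE 0.14). Neither probe passed the limma test (adjusted p = 0.982 and 0.986).

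H19 was not well above background on any array. Its spot intensities were 7.05 and 6.01 under control and ALKBH3 shRNA at 48 h and then 18.8 and 18.8 at 96 h, and its log2 signals lay below the dimmest signal flagged as above background on that array. No fold change is given for it.

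**Figure D2:**
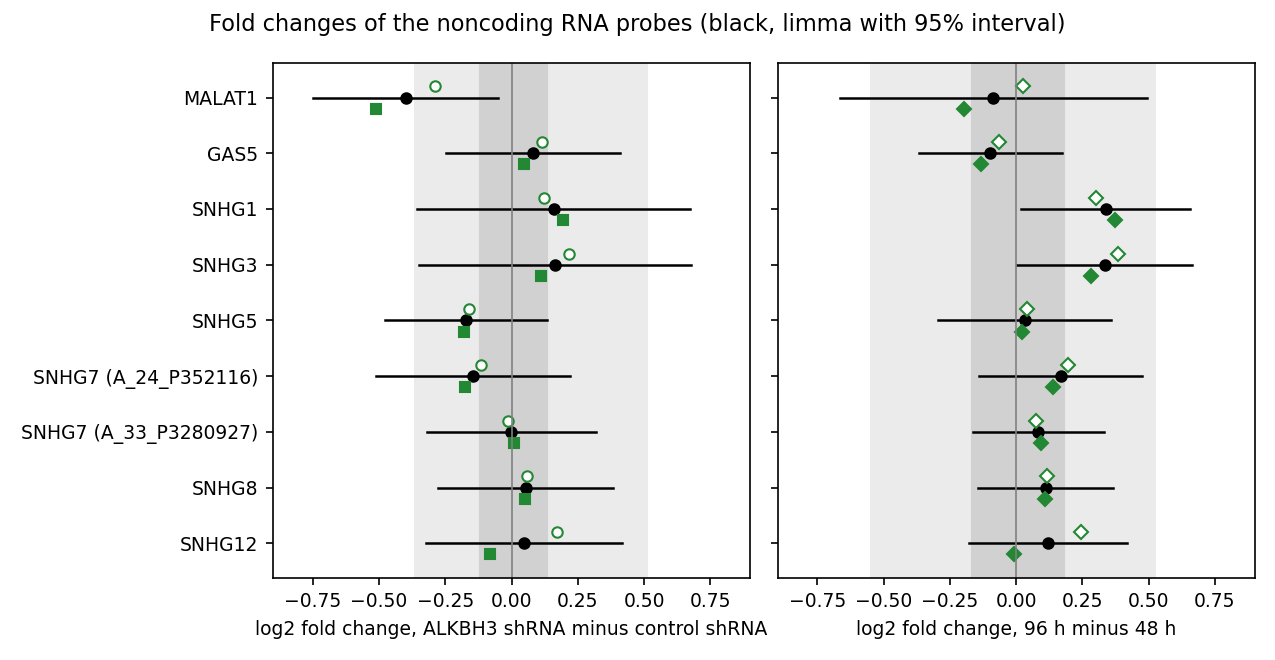
Log2 fold changes of the 9 probes for ALKBH3 shRNA minus control shRNA (left) and for 96 h minus 48 h (right). Black points and lines are limma estimates with 95% intervals from 4 arrays. Green symbols compare 1 array with 1 array: open for 48 h (left) or control shRNA (right), filled for 96 h (left) or ALKBH3 shRNA (right). Dark and light grey bands hold the middle 50% and 90% of all probes tested. The interval of MALAT1 (left) and those of SNHG1 and SNHG3 (right) do not reach 0.

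The second comparison of the design, 96 h against 48 h of selection, also gave 0 of 9 probes past the 2-fold and p cutoffs, against 0.993% of the 23274 probes tested (0.327% higher and 0.666% lower). The adjusted limma p called 0 of the 9 and 0% of all probes. With the shRNA as a block it called 0 of the 9 and 10.8% of all probes. An unadjusted p below 0.05 was reached by 2 of the 9 probes, SNHG1 and SNHG3, and by 19% of all probes (10.5% higher and 8.41% lower). The methods' t-test called 0 of the 9 and gave an unadjusted p below 0.05 to 1 of them, the SNHG7 probe A_33_P3280927.

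The lean of the members was upward with time. Both 96 h arrays lay above both 48 h arrays for 5 of the 9 probes (SNHG1, SNHG3, SNHG8 and both SNHG7 probes), against 28.6% of all probes, and below them for 1, GAS5, against 24.4%. With both shRNAs 6 of the 9 probes were higher at 96 h, against 38.9% of all probes, and 1 was lower, against 36.4%. The median log2 fold change of the 9 was 0.11, and that of all probes 0.0093. Since every 48 h array shared a slide, none of these counts separates a time effect from a slide effect.

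With the processed signal centred on the 75th percentile, SNHG1 and SNHG3 gave the largest time differences of the 9 probes, but this order depended on the background correction, and SNHG12 was the largest with normexp and in the authors' values. SNHG1 was higher at 96 h by 0.30 with control and 0.37 with ALKBH3 shRNA, and the fitted log2 fold change was 0.34 (SE 0.12, 95% interval 0.02 to 0.66), or 1.26-fold. SNHG3 was higher by 0.39 and 0.28, with a log2 fold change of 0.33 (SE 0.12, 95% interval 0.0048 to 0.66), also 1.26-fold. Their unadjusted limma p-values were 0.0423 and 0.0479 and their adjusted p-values 0.247 and 0.260, so neither passed over all probes. With normexp background correction the values were 0.16 for SNHG1 and 0.25 for SNHG3, and in the authors' normalized values 0.14 and 0.24.

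The other hosts differed less between the time points on the same scale, and several of them moved with the background correction. SNHG7 was higher at 96 h by 0.17 with probe A_24_P352116 and by 0.08 with probe A_33_P3280927, and by 0.08 and 0.00094 with normexp. For SNHG8 the difference was 0.11, but it was -0.03 with normexp background correction and -0.05 in the authors' values, so it has no settled direction. SNHG12 was higher by 0.12, with overlapping values, but by 0.29 with normexp (unadjusted limma p = 0.0368, adjusted p = 0.216) and by 0.29 in the authors' values (unadjusted p = 0.0564). SNHG5 was higher by 0.03, also with overlapping values, and by 0.17 with normexp and 0.16 in the authors' values. GAS5 was lower by 0.06 with control and by 0.13 with ALKBH3 shRNA (log2 fold change -0.10, SE 0.10, limma adjusted p = 0.634), and the fitted value was -0.25 both with normexp and in the authors' values (adjusted p = 0.269 and 0.334). MALAT1 was at 0.03 with control and -0.20 with ALKBH3 shRNA, a fitted -0.09 (SE 0.22), which was -0.17 with normexp.

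SNHG3 is the host for which the array also reads its own snoRNA genes. RCC1, which encodes the nucleotide exchange factor of the small GTPase Ran, overlaps SNHG3 in RefSeq, and SNORA73A and SNORA73B lie inside SNHG3. RCC1 read -1.67 with control and -1.46 with ALKBH3 shRNA at 48 h, then -0.997 and -0.89 at 96 h, and was higher at 96 h by 0.62 (SE 0.12, limma adjusted p = 0.136, and 0.0304 with the shRNA as a block). Like SNHG3, it was highest in ALKBH3 shRNA cells at 96 h and lowest in control cells at 48 h.

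The snoRNA probes ordered the arrays differently from their host. SNORA73A read -0.81 and -0.65 under control and ALKBH3 shRNA at 48 h, then -0.95 and -0.92 at 96 h. The first SNORA73B probe, A_33_P3254695, read -0.51 and -0.42 at 48 h, and -0.86 and -0.64 at 96 h. The second SNORA73B probe, A_33_P3355407, read -0.72 and -0.53 at 48 h, and -1.04 and -0.84 at 96 h. All 3 probes had both 96 h arrays below both 48 h arrays (log2 fold changes of -0.21, -0.29 and -0.31), where SNHG3 and RCC1 had both above. None of the 3 passed the limma test (adjusted p = 0.369, 0.300 and 0.296).

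These directions, checked after the values had been seen, held in all 7 background, centring and normalization settings, from -0.31 to -0.23 for the SNORA73B probes, from -0.21 to -0.0094 for SNORA73A, from 0.24 to 0.39 for SNHG3 and from 0.62 to 0.69 for RCC1. SNORA73A and SNORA73B are closely related in sequence, so their probes may share signal. Whether the probes read the mature snoRNA or an unspliced or polyadenylated precursor cannot be told from the files.

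**Figure D3:**
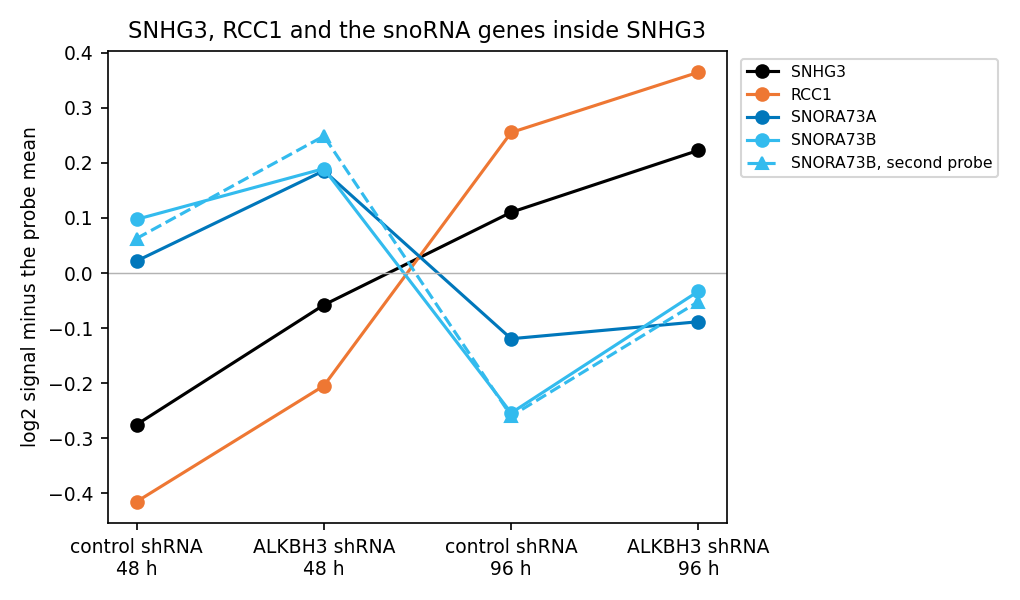
Log2 signal minus the mean of the probe over the 4 arrays (vertical axis) for SNHG3, the overlapping gene RCC1, and the probes of the snoRNA genes SNORA73A and SNORA73B inside SNHG3. Lines join the 4 arrays of a probe, and the dashed line is the second SNORA73B probe. SNHG3 and RCC1 are below 0 on both 48 h arrays and above 0 on both 96 h arrays, and the 3 snoRNA probes are the reverse.

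The array names 18 probes for 16 snoRNA genes, of which 15 probes were tested, and this wider set was put together after its values had been seen. Their median log2 fold change was 0.05 for ALKBH3 shRNA and -0.29 for 96 h against 48 h. Both 96 h arrays lay below both 48 h arrays for 9 of the 15, against 24.4% of all probes, and above them for 2, against 28.6%. The 9 include the probe of SNORA73A, both probes of SNORA73B and both probes of SNORD3B-1, so they are not separate genes. The median time difference was between -0.29 and -0.15 over the 7 settings. Apart from the SNHG3 probes, none of these snoRNA genes lies inside a host of the set.

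Other genes that share DNA with members were read by single probes. DIPK1B, which overlaps SNHG7, read 0.77 with control and 1.19 with ALKBH3 shRNA at 48 h, then 0.72 and 0.98 at 96 h. Its groups did not overlap, and its log2 fold change of 0.34 (SE 0.13, limma adjusted p = 0.667) was not shared by either SNHG7 probe. TRNAU1AP, beside SNHG12, gave -0.09 and MRPL23, beside H19, gave -0.06, while the probe for ZBTB37, beside GAS5, was not well above background on any array.

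Lists of genes that act with or beside these RNAs were read with the tested probe of highest mean signal for each gene. Some lists overlap, and a shared gene is counted in each. NOP56 and DKC1 are both protein-coding hosts and particle subunits. EEF2, EEF1B2 and TPT1 are protein-coding hosts and also on the list of genes with a TOP sequence. In none of the 9 lists did a gene pass the 2-fold and p cutoffs for ALKBH3 shRNA, which 190 of all 14556 genes tested passed. Over all 14556 genes tested 4.66% were higher and 3.5% lower at an unadjusted limma p below 0.05, with a median log2 fold change of -0.0030. The medians of all 9 lists in the shRNA comparison changed sign when single arrays were left out, so none of them has a settled direction.

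Of 15 other noncoding snoRNA hosts 10 were tested, 0 of them had an unadjusted limma p below 0.05, and their median log2 fold change was 0.11. The largest were DANCR, the host of a single H/ACA snoRNA (-0.40, SE 0.16, unadjusted p = 0.0566), SNHG11 (0.26, SE 0.15) and SNHG15 (0.23, SE 0.18). DANCR read 1.61 and 1.02 under control and ALKBH3 shRNA at 48 h, then 1.56 and 1.35 at 96 h, so its groups did not overlap. At 96 h against 48 h the 10 hosts had a median of 0.18, with 5 having both 96 h arrays above both 48 h arrays and 1 below, against 26.9% and 26.4% of all genes.

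The 38 protein-coding snoRNA hosts, mostly genes of ribosomal proteins and translation factors, had a median of -0.04 and 0 with an unadjusted p below 0.05 for ALKBH3 shRNA. Among them RPL4, a ribosomal protein, gave -0.23 (SE 0.12). At 96 h against 48 h their median was 0.09, and 17 of the 38 had both 96 h arrays above both 48 h arrays (44.7%) and 5 below (13.2%), against 26.9% and 26.4% of all genes. The 8 subunits of the snoRNA-protein particles had a median of -0.06 for ALKBH3 shRNA, and 0.23 at 96 h against 48 h with 6 of 8 above (75%) and 1 below (12.5%), against the same shares of all genes. Of these, FBL, the methyltransferase of the box C/D particle, read 5.13 and 4.94 under control and ALKBH3 shRNA at 48 h, then 5.33 and 5.21 at 96 h. DKC1, the pseudouridine synthase of the H/ACA particle, read 2.56 and 2.76 at 48 h, and 2.85 and 2.96 at 96 h.

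The 16 factors of nonsense-mediated decay had a median of -0.03 for ALKBH3 shRNA, and none had an unadjusted limma p below 0.05. UPF1, the central helicase of this pathway, gave 0.15 (SE 0.12). The 13 genes with a known TOP sequence, mostly translation factors but also NPM1 and HNRNPA1, had a median of -0.05. PABPC1, the poly(A) binding protein, differed most (-0.18, SE 0.12), and NPM1 differed almost as much the other way (0.17, SE 0.12). The paraspeckle proteins, 18 of them, had a median of -0.02. SMARCA4, a chromatin remodelling ATPase, was the largest of these (-0.31, SE 0.15), while NONO and SFPQ, core proteins of the paraspeckle, gave 0.00058 and -0.02. The 17 nuclear speckle proteins, in whose compartment MALAT1 lies, ran from -0.15 to 0.08 with a median of -0.05.

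Among the imprinted genes 15 of 18 were tested, with a median of 0.02 for ALKBH3 shRNA. MEST (0.71, SE 0.15) was higher, and PHLDA2 (-0.69, SE 0.14) and KCNQ1OT1 (-0.60, SE 0.16) were lower at unadjusted limma p-values of 0.00611, 0.00548 and 0.0143. KCNQ1OT1, a nuclear antisense RNA of the same imprinted region as H19, read -3.06 and -3.63 under control and ALKBH3 shRNA at 48 h, then -3.25 and -3.89 at 96 h (adjusted p = 0.484, and 0.0480 with time point as a block). IGF2, the growth factor gene next to H19, was the only gene of the 9 lists past the 2-fold and p cutoffs at 96 h against 48 h. Over all 14559 genes tested, 155 passed these cutoffs. IGF2 read 0.95 and 1.14 under control and ALKBH3 shRNA at 48 h and then -0.64 and -0.83 at 96 h, and fell by 1.78 on the log2 scale (SE 0.13, limma adjusted p = 0.123, and 0.0259 with the shRNA as a block).

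Of 22 other long noncoding RNAs 11 were tested. Their median was -0.0012 for ALKBH3 shRNA, with 2 higher and 1 lower at an unadjusted limma p below 0.05. JPX, an activator of XIST transcription, was lower (-0.74, SE 0.21, adjusted p = 0.525, and 0.0376 with time point as a block), at signals near the dim end of the array, from -6.24 to -5.12. CYTOR (0.46, SE 0.11) and TERC, the RNA of telomerase (0.36, SE 0.13), were higher at both time points, with adjusted p-values of 0.462 and 0.633. At 96 h against 48 h the 11 had a median of -0.19. Upward medians in the time comparison were not particular to the snoRNA hosts and particle subunits. The paraspeckle proteins had a median of 0.11, with 10 of 18 genes (55.6%) having both 96 h arrays above both 48 h arrays, and the nuclear speckle proteins a median of 0.12 with 9 of 17 (52.9%), against 26.9% of all genes. The decay factors had a median of 0.05 with 5 of 16 above (31.2%), the genes with a TOP sequence 0.03 with 3 of 13 (23.1%), and the imprinted genes -0.0063 with 4 of 15 (26.7%). Differences between the lists were not tested. Over the 7 settings the median of the other long noncoding RNAs lay between -0.19 and -0.12, that of the other noncoding hosts between 0.18 and 0.24, that of the protein-coding hosts between 0.06 and 0.15 and that of the particle subunits between 0.20 and 0.29.

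**Figure D4:**
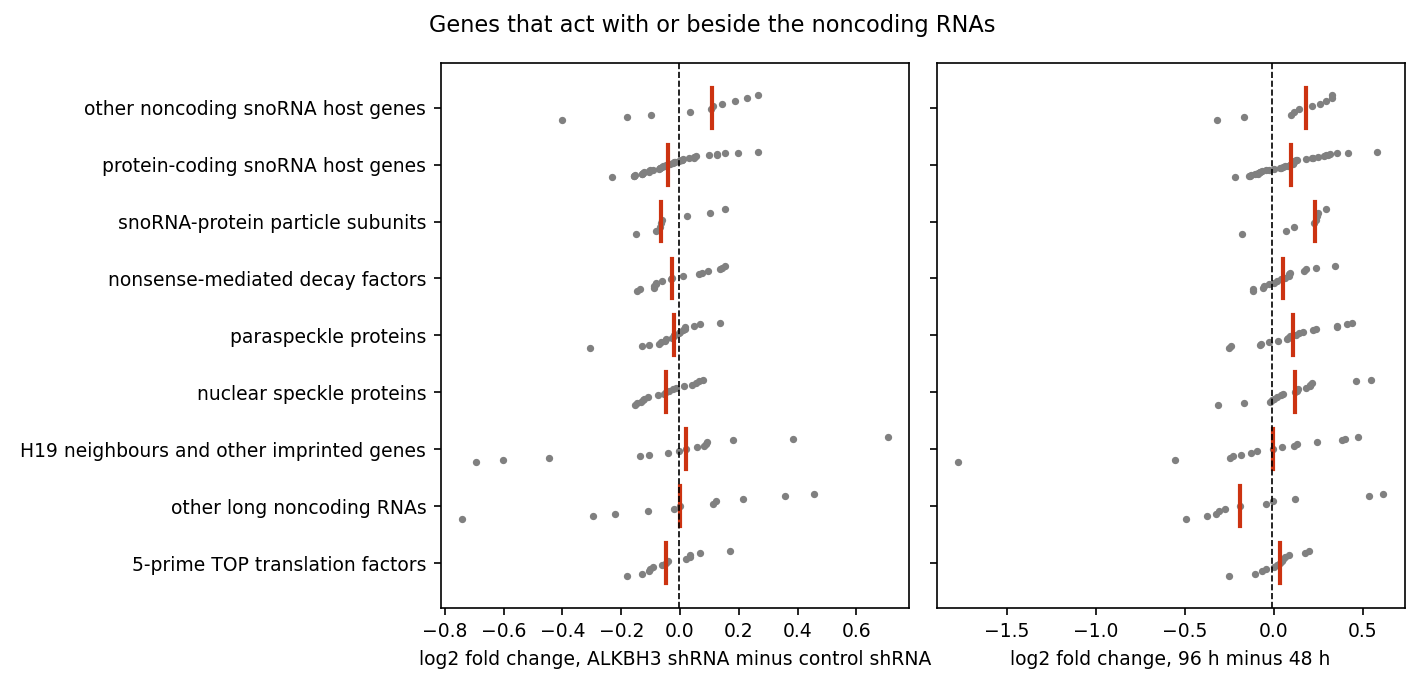
Log2 fold change of every tested gene (grey points) in 9 lists for ALKBH3 shRNA minus control shRNA (left) and 96 h minus 48 h (right), with list medians as red bars and the median of all genes tested as a dashed line. The horizontal axes differ between the panels. The list medians on the left lie between -0.06 and 0.11, and the point at -1.78 on the right is IGF2.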

How the data were processed

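Cy3 intensities of 4 one-colour arrays were analysed. The authors deposited spot intensities that Agilent Feature Extraction had corrected for background on each array, without normalization between arrays, and a table of log2 values normalized between arrays with limma, which served as an alternative. Spots flagged as not uniform or outliers were removed (180 to 379 for each array), and saturation affected 0 spots. Log2 intensities were centred on the 75th percentile of each array. A probe counted as well above background where at least 0.5 of its spots were flagged so, and probes that did so on every array of at least 1 group were tested with limma 3.58.1 (lmFit, eBayes) in R 4.3.3, with Benjamini-Hochberg adjustment over all of them. The number of arrays limits the precision. The steps were tested on simulated data.

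The spot tables used here hold accessions and no gene symbols. The gene table of RefSeq (GRCh38.p14) supplied symbols for 24910 of 34127 probes. That table also gave overlapping genes. The array annotation refers to another build, so it gives no coordinates here.

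The shRNA comparison and the time comparison used all 4 arrays without a covariate. Both arrays of a time point share time and slide. The 48 h deviations from the shRNA means correlated between the shRNAs (r = 0.660 over probes), and fits with a block are given as alternatives. The other alternatives were normexp correction (offset 50, on the median pixel signal, since no mean signal column was used), quantile normalization, other centring, the authors' values, other filters, 1 probe a gene, averaging a gene over its probes, a 1.5-fold cutoff, the methods' t-test and leaving out each array. Named genes were all probes of the 10 noncoding RNAs, ALKBH3, genes sharing DNA with the members, up to 3 genes with the largest shRNA fold change in each list, and the 3 genes nearest in profile to the member with the largest fold change. RCC1, the snoRNA genes, DIPK1B, TRNAU1AP, MRPL23, ZBTB37, IGF2 and the functional examples FBL, DKC1, NONO and SFPQ were named after their values were seen. The members and lists were chosen with earlier results of these data known. Some genes of the lists and markers are not reported here.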

Additional observations from a re-analysis of the deposited data

Results flagged for a closer look

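For 2 probes the shRNA difference had opposite signs at the time points, and for 2 the time difference had opposite signs with the shRNAs. Each value compares 1 array with 1 array, and the differences between them were not tested. SNHG12 was at 0.17 with ALKBH3 shRNA against control at 48 h and at -0.08 at 96 h. The SNHG7 probe A_33_P3280927 was at -0.012 at 48 h and 0.0096 at 96 h, both below the SD between spots of the same probe. At 96 h against 48 h, MALAT1 was at 0.027 with control and -0.20 with ALKBH3 shRNA, and SNHG12 at 0.25 with control and -0.0066 with ALKBH3 shRNA.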

How the results depend on the processing

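In the shRNA comparison the count of noncoding RNA probes past the cutoffs was 0 under every alternative run. The count of these probes with a 2-fold difference at a single time point was 0 with the main scaling. There, 2.98% of all probes tested had such a difference at 48 h or 96 h. The count was also 0 in 6 further settings that were chosen after seeing the data. In the time comparison the count past the cutoffs was 0 except without a filter on dim probes, where it was 1: H19, which was not well above background on any array, whose log2 signal was 1.43 higher at 96 h (limma adjusted p = 0.217). With the replicate block, time point for the shRNA comparison and shRNA for the time comparison, the count remained 0, and the lowest adjusted p of a member was 0.112 and 0.0729. Among all probes the block raised the calls at an adjusted p below 0.05 from 0 to 685 and from 0 to 2516.

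MALAT1 was lower with ALKBH3 shRNA in all 16 alternatives, from -0.50 to -0.21, with an unadjusted p below 0.05 in 8 of them and adjusted p-values of at least 0.112. Leaving out the control array at 48 h or at 96 h, or the ALKBH3 shRNA array at 96 h, ended its unadjusted call (-0.41, -0.39 and -0.30). SNHG1 and SNHG3 were higher at 96 h in all 16, from 0.14 to 0.43 and from 0.22 to 0.44, with an unadjusted p below 0.05 in 7 each. SNHG12 was higher at 96 h in all 16, from 0.03 to 0.29, with an unadjusted p below 0.05 in the 2 normexp settings, and GAS5 was lower in all 16, from -0.25 to -0.04. These counts of 16 include alternatives that changed only the filter, block, test, cutoff or number of probes a gene. Those left the fold change as it was. Direction could differ only in the background, centring and normalization settings or with an array left out. At the 1.5-fold cutoff the p-value was unchanged too.

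Of 286 alternative values of single probes, which include those with an unchanged fold change, 268 kept their direction and their side of the cutoffs, and 18 changed sign. The SNHG7 probe A_33_P3280927 turned to 0.0012 (normexp with quantile normalization), 0.015 (quantile normalization), 0.018 (75th percentile over probes above background on all arrays) and 4.0e-05 (the authors' values) in the shRNA comparison, and SNHG8 to -0.035 (normexp), -0.053 (normexp with quantile normalization) and -0.050 (the authors' values) in the time comparison. Leaving out single arrays gave shRNA ranges of -0.049 to 0.046 for this SNHG7 probe, -0.077 to 0.17 for SNHG12, -0.0039 to 0.11 for SNHG8, -0.028 to 0.36 for SNHG3 and -0.028 to 0.34 for SNHG1, and time ranges of -0.34 to 0.17 for MALAT1 and -0.059 to 0.12 for SNHG5. The causes were not tested. Of 126 list medians, 43 moved by more than 1 SD of the list median over the time points, and no list gained a call. Leaving out single arrays turned the sign of the shRNA median of every list: it ran from -0.015 to 0.18 for the other noncoding hosts, -0.073 to 0.023 for the protein-coding hosts, -0.10 to 0.071 for the particle subunits, -0.062 to 0.044 for the decay factors, -0.061 to 0.042 for the paraspeckle and -0.11 to 0.020 for the nuclear speckle proteins, -0.078 to 0.049 for the imprinted genes, -0.066 to 0.082 for the other long noncoding RNAs and -0.072 to 0.00064 for the TOP factors.

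Calls among all probes were 206 higher and 54 lower for ALKBH3 shRNA, 76 and 27 with normexp, 118 and 42 in the authors' values, 495 and 113 without a filter, 60 and 25 by the methods' t-test and 595 and 292 at 1.5-fold.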
